A study of Mus musculus with 10 samples.

Results

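The data described here are the levels of Trp53, the mouse gene for the tumor suppressor p53, and of 31 genes that p53 is known to control, in mouse sarcomas. The 32 genes were taken by symbol out of 56750 features in the count table, and all 32 symbols were found. The rule uses no measured value, but the list was chosen with earlier results of these data known. By role, 3 are regulators (Trp53, Mdm2 and Trp73), 6 act on the cell cycle, 12 on cell death, 4 on DNA repair and 7 on metabolism and stress defence. The study made a mouse model of CIC::DUX4 sarcoma (CDS) and compared its tumors with another sarcoma model by bulk RNA sequencing. The dFLEx group held 3 tumors, 170019, 170024 and 170025, of the genotype dFLEx CDS +/-. In these mice a CAG promoter at the Rosa26 locus drives the fusion gene once both Cre and FLP have turned its exons around, and the study delivered the recombinases as plasmids by electroporation of a hind-limb muscle, so that muscle surrounds the tumors. No Trp53 allele is given for the dFLEx mice. The KP group held 2 tumors, 3800 and 3802, whose genotype includes p53fl/fl, in which Cre deletes floxed exons of Trp53, together with a Cre-activated oncogene. Neither age nor sex is given in the labels, no treatment is named for these tumors, and host cells within a KP tumor can still carry intact Trp53.

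The p53 protein is a transcription factor that is kept at low abundance by the ubiquitin ligase Mdm2 and is stabilized by DNA damage, oncogene signalling and other stress. Once stabilized it binds paired copies of a short DNA element and switches on genes that stop the cell cycle, repair DNA, tune metabolism or kill the cell, and Mdm2 itself is a target, which closes a feedback loop. Because p53 is regulated mainly as a protein, the level of Trp53 mRNA is not a measure of its activity.

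The p53 consensus site, made of 2 adjacent elements of 10 bases, was searched within 3000 bases on each side of the start of each gene's canonical transcript, allowing 1 mismatch outside the C and G of each core (the search covers both strands because the consensus is its own reverse complement). Such a site lay near 4 of the 32 genes (12.5%), against 194 of 21630 protein-coding genes (0.897%) and 166 of 16857 protein-coding genes tested below (0.985%). The genes had been listed because p53 is known to act on them, so the excess describes the list. The matches are shown because they are the stretches nearest to the letters that p53 is known to bind, each read 5′ to 3′ on the strand of its gene in GRCm39, with the central 4 bases of each element in capitals.
Cdkn1a, chr17:29309902-29309921: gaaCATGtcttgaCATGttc
Ccng1, chr11:40646289-40646308: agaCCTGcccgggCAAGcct
Ccng1, chr11:40645763-40645782: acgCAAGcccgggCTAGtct
Zmat3, chr3:32418480-32418499: aaaCAAGcccaggCATGtct
Gdf15, chr8:71084616-71084635: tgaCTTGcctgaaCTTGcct
The Cdkn1a site was centred 2826 bases upstream of the transcript start, and Ccng1 held an upstream site, 160 bases before its start, and another in intron 1, 366 bases after it. The Zmat3 site lay in intron 1, 1419 bases after the start, and was the only match with 0 mismatches. The Gdf15 site lay 486 bases after the start, in an untranslated part of exon 1. A match of letters is not a measured binding site, and the remaining 28 genes can carry sites with spacers, with more mismatches or farther away.

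The RNA of a tumor was divided into duplicate libraries, and 9 of 10 libraries were analysed, with 1 library for 3802 (its second was not analysed here). Library totals ran from 20503474 to 46302223 counts. Counts of a tumor's duplicates were summed, so that a tumor is a replicate, and levels are given as CPM (read counts scaled to a common library total by TMM). Nothing in the labels places the 5 tumors in batches. The CIC::DUX4 construct had 105, 202 and 423 CPM in the dFLEx tumors, 0 in 3800 and 0.244 in 3802. The library of 3802 stood apart, with counts at 36904 features against 24280 to 31768 in the other libraries and 92.5% of its counts in protein-coding genes against 95.6% to 98.1%. The tumors also differed in other cell types. Summed over 9 myocyte markers, levels were 10141, 38000 and 10209 CPM in the dFLEx tumors and 1673 and 5046 CPM in the KP tumors. For 8 macrophage markers the sums were 1058 to 1266 CPM in dFLEx and 2647 to 5282 CPM in KP tumors, and for 8 endothelial markers 253 to 600 and 107 to 189 CPM. For 5 pericyte markers they were 924, 588 and 1016 CPM in dFLEx and 353 and 86.9 CPM in KP tumors. Rgs5 alone held 826, 473 and 776 CPM of these in dFLEx and 249 and 16.5 CPM in KP tumors. The fold change was above 0 for 4 of the 5 markers. Cspg4 went the other way, with 20.1, 18.9 and 34.2 CPM in dFLEx and 35.2 and 27.2 CPM in KP tumors. The sums for 6 T cell and 4 B cell markers were highest in 3802, at 48.6 and 34.7 CPM, and at most 11.03 and 5.93 CPM in the other tumors. No marker on these lists was at 0 in any tumor. In bulk tumor RNA, fewer cells of a type and less RNA per cell cannot be told apart, and the part of other cell types in the values below was not tested beyond the comparisons given.

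Most p53 target genes had higher levels in the dFLEx tumors, but none of the differences passed the test. Of 31 genes tested (Trp73 was too low), 0 fell under the threshold of 0.05 for the adjusted p of edgeR's quasi-likelihood fit, where 45 of all 24743 genes did (0.182%), and the smallest adjusted p among the 31 was 0.256. The fold change was above 0 for 27 of 31 genes (87.1%), against 43.7% of all tested genes and 54.0% of the 15264 that averaged 1 CPM or more. It was above 0 for 25 of the 31 with DESeq2 size factors and for 24 with library totals or upper-quartile scaling. The median log2 fold change of the 31 was 0.84, with a median of -0.18 over all tested genes and 0.09 over those averaging 1 CPM or more. Without adjustment, 4 genes had a p under 0.05 (12.9%), all higher in dFLEx tumors, against 10.6% of all genes and 15.1% of those averaging 1 CPM or more, so the share was not above that of expressed genes. In 11 genes (35.5%) every dFLEx tumor was above both KP tumors, a pattern shown by 13.7% of all tested genes and 18.1% of those averaging 1 CPM or more. Gadd45a alone had all dFLEx tumors below both KP tumors (3.23% of the list, against 11.7% of all genes). Of the 31 intervals 27 included 0 and none lay within 1 log2 unit of 0 on both sides, so that a 2-fold difference lay within the interval of every gene in at least 1 direction.

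**Figure D1:**
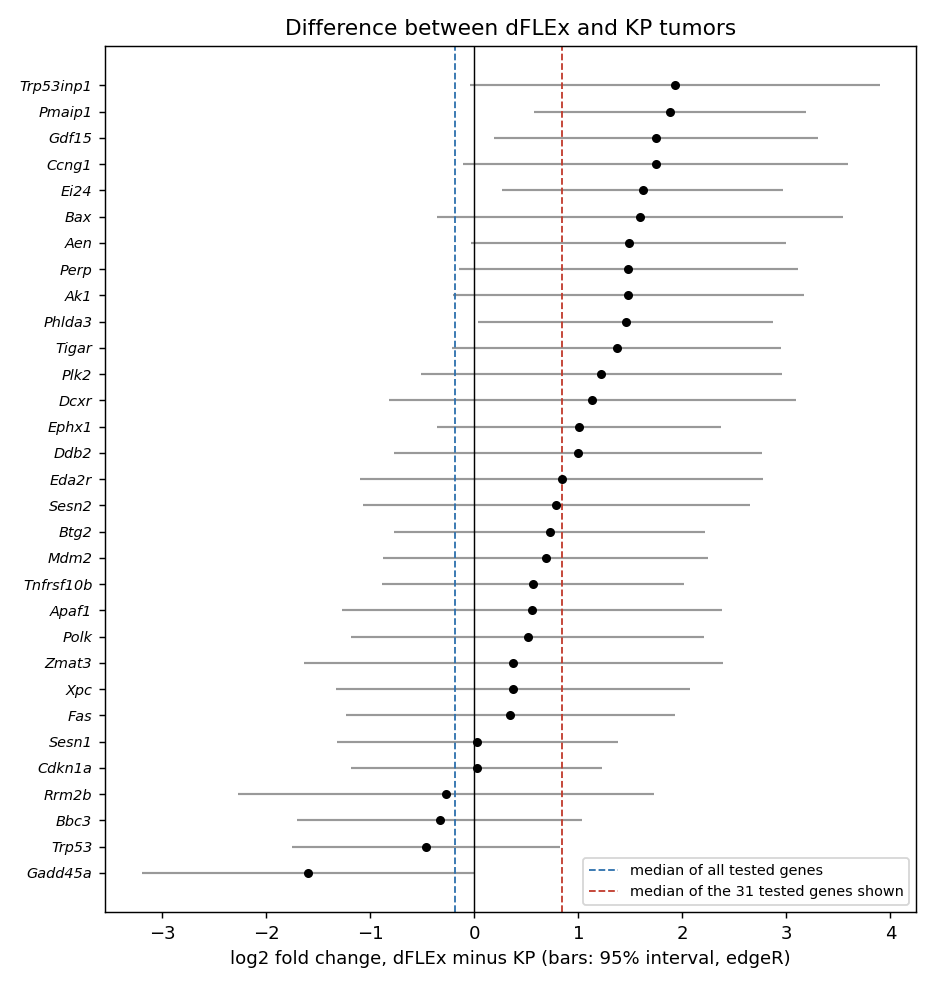
Log2 fold change between dFLEx and KP tumors for the 31 tested genes, sorted by size, with 95% intervals from edgeR as bars (3 dFLEx and 2 KP tumors). The dashed lines mark the median of all tested genes (-0.18) and of the 31 genes (0.84). Pmaip1, Gdf15, Ei24 and Phlda3 have intervals that lie above 0.

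Trp53 itself (chromosome 11, 69471185 to 69482699) was measured in every tumor of both groups. Its level was 77.5, 85.1 and 104 CPM in dFLEx tumors 170019, 170024 and 170025, and 162 and 82.6 CPM in KP tumors 3800 and 3802. The groups overlapped, because 3802 lay among the dFLEx tumors while 3800 was the highest of the 5. The means were 89.0 ± 13.9 CPM (SD, n = 3) and 123 ± 56.5 CPM (SD, n = 2), with a log2 fold change of -0.46 (SE 0.56, 95% interval -1.75 to 0.83, adjusted p 0.898, edgeR), which became 0.27 without 3800. Reads were counted over the whole gene, so deletion of the floxed exons and RNA from host cells in the KP tumors cannot be told apart from intact message in this value, and it does not check the p53fl/fl label. Mdm2, the ligase that degrades p53, stood at 41.8, 40.1 and 78.7 CPM in the dFLEx group, against 48.4 and 18.2 CPM in the KP group. Here the overlap ran the other way, with 3800 above 2 of the dFLEx tumors and 3802 the lowest. The log2 fold change of Mdm2 was 0.69 (SE 0.68, adjusted p 0.874), which was 0.16 without 3802 and 1.73 without 3800. Trp73, which encodes the p53 relative p73, had between 0 and 8 counts in any library, at or below 0.139 CPM in every tumor, and no difference could be detected at this depth.

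**Figure D2:**
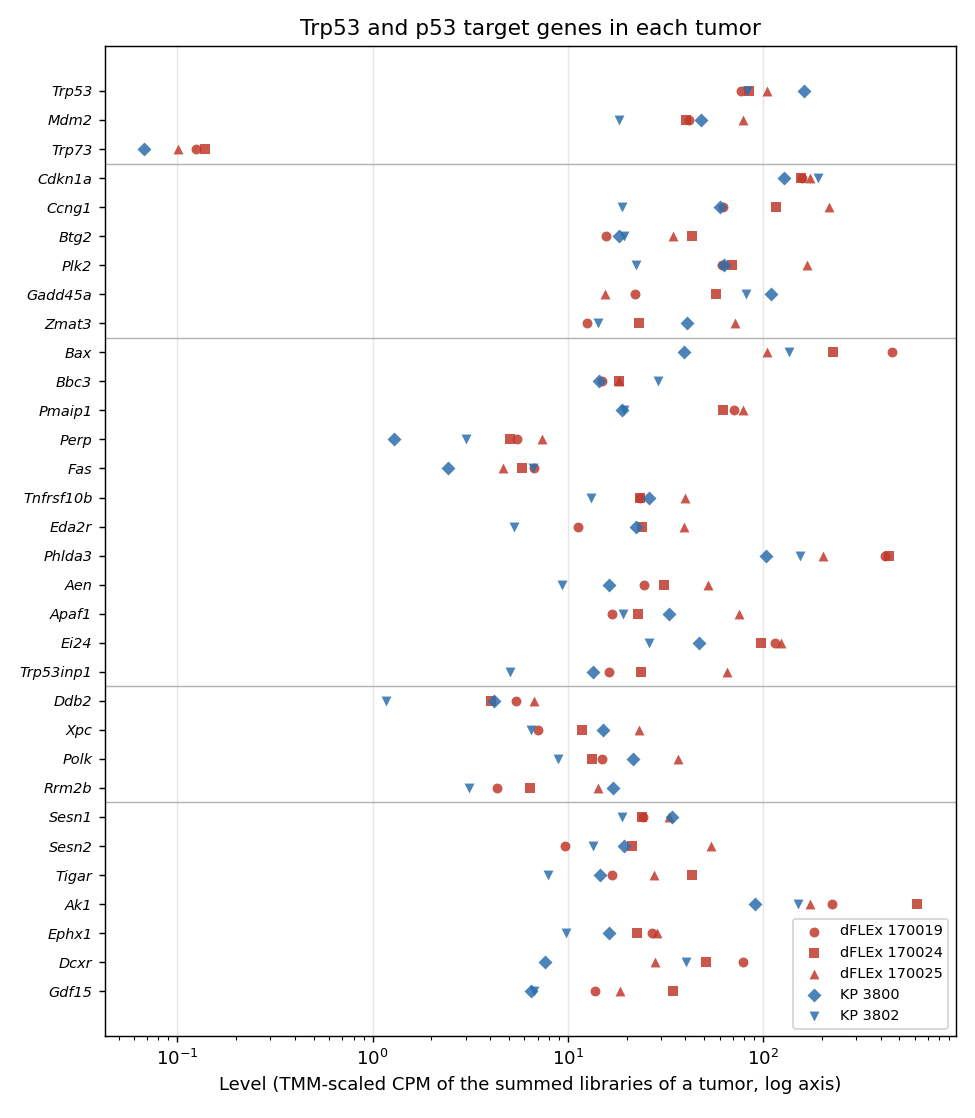
Level of each of the 32 genes in the 5 tumors, as TMM-scaled CPM on a log axis, with dFLEx tumors in red and KP tumors in blue and horizontal lines between the roles. The value of 0 for Trp73 in 3802 cannot be drawn on this axis. Pmaip1 and Ei24 show the red and blue symbols apart, whereas those of Trp53 and Cdkn1a are mixed.

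Among the 6 cell cycle genes, 5 had a fold change above 0 and 1 below, with a median of 0.55 and none passing the test. Cdkn1a encodes p21, the inhibitor of cyclin-dependent kinases through which p53 arrests the cell cycle. Its level was 159, 156 and 174 CPM in the dFLEx group, against 129 and 192 CPM in the KP group. All dFLEx tumors lay between the KP tumors, and the log2 fold change was 0.02 (95% interval -1.18 to 1.22), with its sign reversed under DESeq2 size factors, library totals and upper-quartile scaling. Antisense Dino overlaps 7.68% of the Cdkn1a exons. Counting did not use strand, so by the counting program's defaults reads there can go uncounted. Ccng1, which encodes cyclin G1 and carries the pair of sites shown above, had 62.1, 116 and 218 CPM in the dFLEx group, against 59.9 and 19.1 CPM in the KP group. The groups just failed to overlap, with 170019 close to 3800, and the log2 fold change was 1.74 (SE 0.80, adjusted p 0.517), with 1.16 without 3802 and 2.97 without 3800. Gadd45a, a stress sensor that acts in growth arrest and repair, had the most negative fold change of the list. It had 22.0, 57.7 and 15.4 CPM in the dFLEx group, against 109 and 82.1 CPM in the KP group. The groups did not overlap, and the log2 fold change was -1.60 (SE 0.69, adjusted p 0.476), although 19.1% of its exonic bases are shared with an antisense gene, E230016M11Rik. Plk2, a stress-responsive polo-like kinase, and Btg2, an antiproliferative gene, had log2 fold changes of 1.22 and 0.73, and their groups overlapped. The value of Plk2 was 0.61 without 170025, 0.67 without 3802 and 2.33 without 3800, and that of Btg2 was 0.39 without 170024. Zmat3, a zinc finger RNA-binding protein, ranged 5.72-fold among the dFLEx tumors alone, from 12.5 to 71.4 CPM, around the KP levels of 40.7 and 14.3 CPM. Its log2 fold change was 0.37, and it was -0.63 without 170025 and -0.18 without 3802.

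The 12 cell death genes had the highest median of the roles, 1.47, with 11 above 0. Among them were 6 with separated groups and 3 of the 4 genes at an unadjusted p under 0.05 (edgeR). The 6 were all higher in dFLEx tumors, a pattern of 13.7% of all tested genes and 18.1% of those averaging 1 CPM or more. Pmaip1, which encodes the BH3-only protein Noxa, had the smallest p of the list. It stood at 71.0, 62.7 and 79.0 CPM in the dFLEx group, against 18.98 and 19.5 CPM in the KP group. Each dFLEx tumor was above both KP tumors by a wide margin, and the tumors of each group lay close together. The log2 fold change was 1.88 (SE 0.57, unadjusted p 0.0106, adjusted p 0.256, edgeR), and leaving out any tumor kept it between 1.78 and 2.03. Ei24, a membrane protein induced during p53-dependent apoptosis, had 116, 97.3 and 123 CPM in the dFLEx group, against 46.7 and 26.2 CPM in the KP group. Its groups were also apart, and the log2 fold change was 1.62 (SE 0.59, adjusted p 0.366), though antisense Gm26787 shares 6.66% of its exonic bases. Phlda3, an inhibitor of Akt signalling, had 419, 441 and 202 CPM in dFLEx tumors against 103 and 155 CPM in KP tumors. Here 170025 was lower than the other two dFLEx tumors yet above both KP tumors, and the log2 fold change was 1.45 (SE 0.61, adjusted p 0.459).

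Bax, the pore-forming protein of the mitochondrial membrane, had 460, 228 and 105 CPM in the dFLEx group, against 39.3 and 136 CPM in the KP group. The groups overlapped because 3802 exceeded 170025, and the log2 fold change of 1.59 (SE 0.84, adjusted p 0.621) ranged from 0.85 without 170019 to 2.77 without 3802. A gene on the same strand, Gm45808, shares 12.2% of the Bax exons. Bbc3, which encodes the BH3-only protein Puma, did not share the direction of Pmaip1. It had 14.9, 18.3 and 18.3 CPM in the dFLEx group, against 14.5 and 29.0 CPM in the KP group. Its log2 fold change was -0.33 (95% interval -1.70 to 1.03), and 0.27 without 3802. Trp53inp1, a stress protein that promotes p53 activity, had the largest fold change of the list, 1.93 (SE 0.85, adjusted p 0.490), from 16.3, 23.8 and 65.4 CPM in the dFLEx group, against 13.4 and 5.04 CPM in the KP group. The groups were separate, with 170019 near 3800, and the value was 1.11 without 170025 and 2.98 without 3800. Perp, a membrane protein of desmosomes and apoptosis, and Aen, a nuclease of apoptotic cells, had separated groups with log2 fold changes of 1.48 each, and 41 other genes hold stretches of at least 150 bases that match Aen at 95% or more, the longest over 1463 of its 5801 exonic bases, so that reads there can go uncounted. Stretches of this kind were also found for Tnfrsf10b (in 19 other genes), Rrm2b (2), Ddb2 (1), Xpc (1) and Mdm2 (1). The longest for these 5 genes covered 1051 bases of Rrm2b. Perp was low, from 1.29 to 7.38 CPM. The receptor genes showed smaller differences and overlapping groups. Their log2 fold changes were 0.35 for Fas, 0.56 for Tnfrsf10b, the mouse TRAIL receptor, and 0.84 for Eda2r, the ectodysplasin A2 receptor. Without 3802 the values of Tnfrsf10b and Eda2r were 0.17 and 0.16, and without 3800 they were 1.30 and 2.40. The sign for Fas was reversed under library totals and upper-quartile scaling and without 3800. Apaf1, the apoptosome scaffold, had a log2 fold change of 0.55, which was -0.40 without 170025, the tumor that held 75.3 CPM against 16.9 to 33.1 CPM in the others.

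None of the 4 DNA repair genes had separated groups. Most genes did not, with overlap in 18457 of all 24743 tested genes and 10741 of the 15264 averaging 1 CPM or more. Ddb2 and Xpc, which recognise damage in nucleotide excision repair, had log2 fold changes of 1.00 (SE 0.76) and 0.37 (SE 0.74), and 23.8% of the Ddb2 exons are shared with antisense Acp2. Ddb2 was lowest in 3802, with 1.18 CPM against 4.04 to 6.71 CPM in the other tumors, and its log2 fold change was 0.38 without 3802 and 2.36 without 3800. Xpc, Polk, a translesion polymerase with a log2 fold change of 0.51, and Rrm2b, the p53-inducible subunit of ribonucleotide reductase, each spread more among tumors of a group than between groups. Rrm2b showed this most, with 4.35, 6.43 and 14.2 CPM in the dFLEx group, against 17.0 and 3.13 CPM in the KP group. The KP tumors were the highest and the lowest of the 5 and differed 5.42-fold, and the log2 fold change of -0.27 moved to 1.59 without 3800 and to 0.03 without 170019. For Xpc and Polk the values without 170025 were -0.20 and -0.10, and that of Xpc without 3802 was -0.09.

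All 7 genes of metabolism and stress defence had fold changes above 0, with a median of 1.14, and none passed the test. In 4 of them every dFLEx tumor was above both KP tumors. This was so for 13.7% of all tested genes and 18.1% of those averaging 1 CPM or more. Gdf15, a secreted stress cytokine, had 13.8, 34.4 and 18.5 CPM in the dFLEx group, against 6.52 and 6.75 CPM in the KP group. The groups were apart and the KP tumors alike, with a log2 fold change of 1.75 (SE 0.67, unadjusted p 0.0323, adjusted p 0.406, edgeR). Tigar, a fructose bisphosphatase that lowers glycolysis, had 16.8, 43.1 and 27.6 CPM in the dFLEx group, against 14.6 and 7.96 CPM in the KP group, and its log2 fold change was 1.37 (SE 0.69, adjusted p 0.583). Ephx1, a microsomal epoxide hydrolase, was the most even of the 7 among dFLEx tumors, with 27.1, 22.7 and 28.5 CPM in dFLEx tumors against 16.2 and 9.79 CPM in KP tumors, and a log2 fold change of 1.00. Ak1 is an adenylate kinase that is abundant in skeletal muscle. It had 225, 614 and 175 CPM in the dFLEx group, against 90.6 and 152 CPM in the KP group, and its log2 fold change of 1.48 (SE 0.73, adjusted p 0.570) was 0.71 without 170024. The tumor with the most Ak1, 170024, also had the highest myocyte marker sum (38000 CPM), and 3800, with the least Ak1, had the lowest (1673 CPM). The part of muscle in the Ak1 values was not tested. Dcxr, a xylulose reductase, overlapped between groups, and the KP tumors differed from 7.62 CPM in 3800 to 40.3 CPM in 3802. Its log2 fold change of 1.14 was 0.54 without 3800 and 2.81 without 3802. The sestrins, which restrain mTORC1 under stress, had overlapping groups. Sesn1 was at 0.03, with its sign reversed under the 3 other scalings, and Sesn2 was at 0.79, which became -0.09 without 170025.

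On the scale of CPM per kilobase of exon, averaged over the 5 tumors, the list spanned from abundant to nearly silent genes. Phlda3 (169), Bax (123), Ak1 (96.8), Cdkn1a (45.6) and Dcxr (35.9) had the highest levels per kilobase, and Trp53 was in place 8 with 25.3. At the low end were Ddb2 (1.58), Rrm2b (0.987) and Trp73 (0.0156). Of the 4 genes with the smallest p, Phlda3 was in place 1, Pmaip1 in place 9, Ei24 in place 11 and Gdf15 in place 16.

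In all 31 genes the median difference between tumors of a group was larger than the median difference between duplicates of a tumor. Single pairs of duplicates could differ more, by up to 0.98 log2 units for Perp, whose median between tumors was 0.49. Tumor 3802 had no duplicate in these values. The median difference over the genes was 1.07-fold between duplicates and 1.76-fold between tumors of a group. The differences among tumors ran through much of the list. Of the 31 genes 17 were highest in 170025 (54.8%), against 19.4% of all tested genes and 27.4% of those averaging 1 CPM or more. In 3802, 15 were lowest (48.4%, against 25.5% and 36.2%). Relative to each gene's mean over the 5 tumors, the median log2 level of the 31 genes was -0.04 in 170019, 0.23 in 170024, 0.81 in 170025, -0.26 in 3800 and -0.85 in 3802. For all genes averaging 1 CPM or more the medians were -0.15, 0.03, 0.29, 0.22 and -0.41. Among these genes 170025 was also high and 3802 low, whereas 3800 was not low as it was in the listed genes. Over all 24743 tested genes the medians were 0.08, 0.06, -0.09, -0.17 and 0.07, so there 170025 was not high, 3802 was not low and 3800 was the lowest. The sums of endothelial markers (600 CPM) and fibroblast markers (8814 CPM) were also highest in 170025 and lowest in 3802 (107 and 1625 CPM). The markers of a list did not all move together. Col1a1 (5105 CPM), Col1a2 (3360 CPM) and Pdgfra were highest in 170025, but Lum and Fap in 170024 and Dcn in 3802 (565.5 CPM). Of the endothelial markers, Emcn was highest in 170019, Vwf in 3800 and the others in 170025. The part of these cell types in the pattern was not tested.

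**Figure D3:**
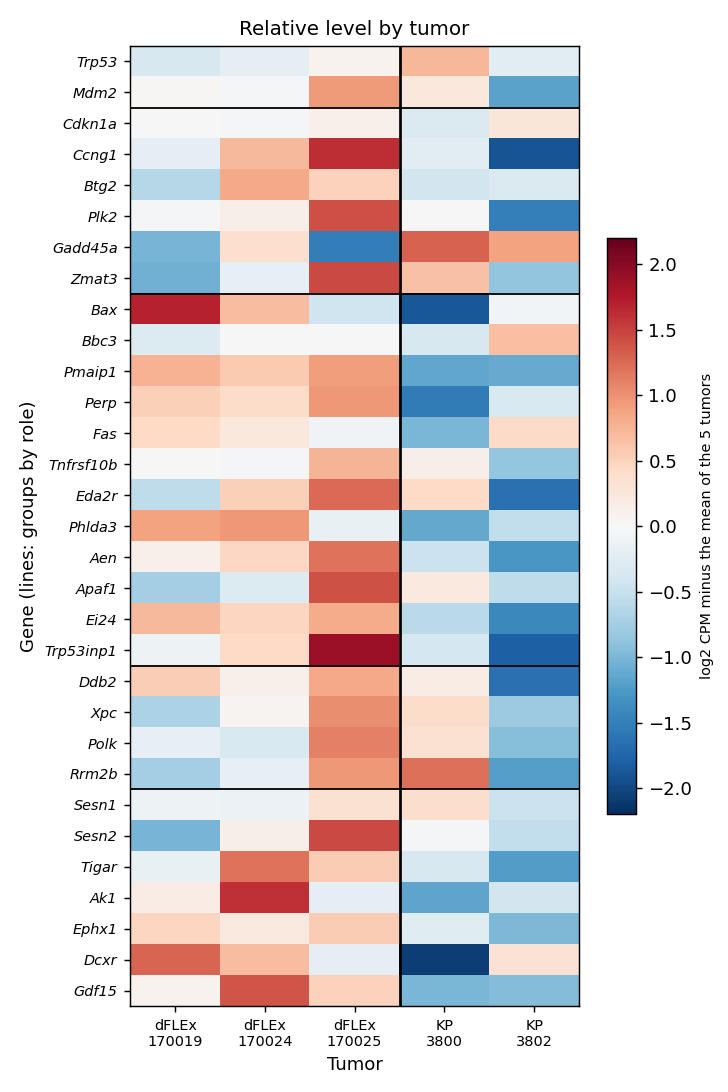
Heat map of the log2 CPM of the 31 tested genes in each tumor, after subtraction of the gene's mean over the 5 tumors, with red above and blue below that mean and lines between the roles and the groups. The column of 170025 is mostly red and that of 3802 mostly blue, with median values of 0.81 and -0.85, and the genes below -0.1 in 170025 are Gadd45a (-1.53), Bax, Dcxr, Ak1 and Phlda3.

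The differences between tumors of a group went with the length of the gene. Across the 31 genes, Spearman's rho between the length of the counted exons and the log2 ratio of 170025 over 170019 was 0.80, and for 3800 over 3802 it was 0.76. These values describe 31 genes in the same libraries and are not tests. The 15 genes shorter than the median length of 3553 bases had a median log2 ratio of 0.16 between 170025 and 170019 and the 15 longer genes 1.30, and for 3800 over 3802 the medians were -0.09 and 1.21. Bax (1576 bases), Dcxr (1144 bases) and Phlda3 (1559 bases) were lower in 170025 than in 170019 and lower in 3800 than in 3802, whereas the longest genes, Zmat3 (11435 bases), Rrm2b (9134 bases) and Apaf1 (9028 bases), were higher in both comparisons. The same order held more weakly over 13751 protein-coding genes averaging 1 CPM or more, where rho was 0.51 and 0.32. Between the groups the relation was weak, with rho -0.20 for the fold change of the 31 genes and -0.20 over the protein-coding genes. The median log2 fold change was still 1.14 in the 15 shorter and 0.56 in the 15 longer genes. Over the protein-coding genes the medians, split at the same length, were 0.32 and -0.05. When a smooth trend on exon length was taken out of each tumor, the median log2 fold change of the 31 genes was 0.67, 25 were above 0 and 0 were called, and 8 had an unadjusted p under 0.05 (3273 of all 24743 genes), 7 of them higher in dFLEx tumors, with Gadd45a lower at -2.01. The cause of the length pattern was not tested.

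**Figure D4:**
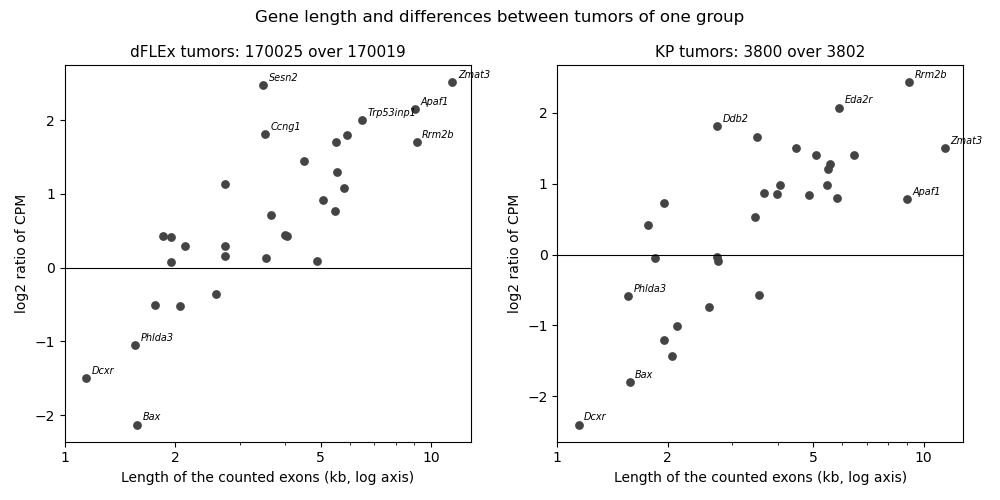
Log2 ratio of CPM between a pair of tumors of one group against the length of the counted exons (kilobases, log axis) for the 31 tested genes, with dFLEx tumors 170025 over 170019 on the left and KP tumors 3800 over 3802 on the right. In both panels the short genes Bax, Dcxr and Phlda3 lie below 0 and the long genes Zmat3, Rrm2b and Apaf1 above 0 (rho 0.80 and 0.76).

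Leaving out each tumor in turn showed how far single tumors set these values. For 20 of the 31 genes the direction was the same whichever tumor was left out, and for 11 it changed. Pmaip1, Ei24, Gdf15, Phlda3, Aen, Perp, Ccng1 and Trp53inp1 stayed at or above 1.11 in every such fit, and Gadd45a stayed between -2.34 and -1.22. The median of the 31 genes was 0.94 without 170019, 0.87 without 170024, 0.61 without 170025, 1.35 without 3800 and 0.67 without 3802, against medians over all genes of -0.16, -0.07, -0.26, -0.07 and 0.34. The number of genes above 0 was 20 without 170025 and 25 without 3802, and 27 in the other fits. None of the 31 genes was called in any of these fits.

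**Figure D5:**
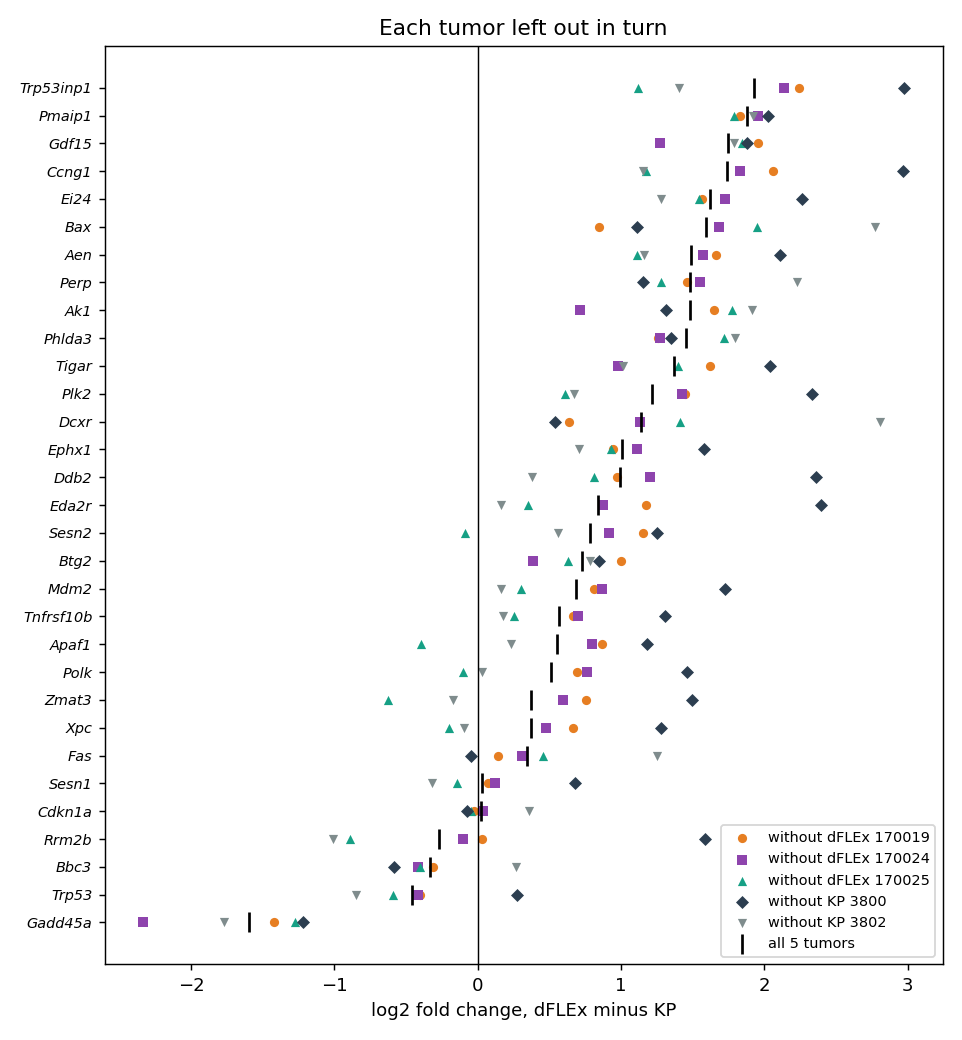
Log2 fold change of the 31 tested genes between dFLEx and KP tumors with all 5 tumors (black ticks) and with each tumor left out (coloured symbols), sorted as in the plot of fold changes. Pmaip1 stays between 1.78 and 2.03, while Rrm2b runs from -1.01 to 1.59 and Trp53 from -0.85 to 0.27.

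The number of calls depended on the tool and on what counted as a replicate. DESeq2 on the tumor sums called Pmaip1 (adjusted p 0.0204), while it called 6.18% of all genes. With the tumor as a random effect, limma-voom called Pmaip1, Ei24 and Gadd45a, the last lower in dFLEx tumors, and 2.78% of all genes. With the 9 libraries taken as independent samples, edgeR called 8 of the 31 genes, namely Pmaip1, Ei24, Gdf15, Phlda3, Aen, Perp, Ephx1 and Gadd45a, and 17.1% of all genes, but duplicates share their RNA and this fit understates the spread between tumors.

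Further genes of the pathway were compared through 3 other lists. Of 20 genes that act on p53, 9 had fold changes above 0 and 11 below. That was 45% above 0, against 43.7% of all genes and 54.0% of those averaging 1 CPM or more. The median log2 fold change of the 20 genes was -0.06, and 0 passed the test. The largest difference among them was that of Cdkn2a, which encodes p16 and the Mdm2 inhibitor p19Arf. It had 357, 192 and 46.6 CPM in the dFLEx group, against 1256 and 1589 CPM in the KP group, with every dFLEx tumor below both KP tumors. The log2 fold change was -2.84 (SE 0.81), and edgeR gave an adjusted p of 0.228. Of 29 tested genes on a list of 30 further p53 targets, 17 were above 0 and 12 below, with a median of 0.22, and 0 passed (58.6% above 0, against 43.7% of all genes and 54.0% of those averaging 1 CPM or more). At an unadjusted p under 0.05 there were 6 (20.7%, against 10.6% of all genes and 15.1% of those averaging 1 CPM or more), of which 5 were higher in dFLEx tumors, among them Igfbp3, an IGF-binding protein (2.67), Lif, a cytokine (3.44), Pidd1, a scaffold of caspase activation (2.66), and Plk3, a polo-like kinase (1.70), and Rprm, a G2 arrest gene, was lower (-2.60). Rprm was low in every tumor, with 0.348, 0.590 and 0.252 CPM in the dFLEx group, against 2.31 and 2.52 CPM in the KP group. The smallest adjusted p of edgeR on this list was 0.122, for Igfbp3, which had 938, 997 and 1063 CPM in the dFLEx group, against 184 and 130 CPM in the KP group. Of 15 mitotic genes that p53 represses through p21 and the DREAM complex, 4 were above 0 and 11 below. The share above 0 was 26.7%, against 43.7% of all genes and 54.0% of those averaging 1 CPM or more. Their median was -0.33, against -0.18 over all genes and 0.09 over those averaging 1 CPM or more. Of the 15 genes 0 passed, also at an unadjusted p under 0.05 in edgeR.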

How the data were processed

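RNA from flash-frozen tumors was made into rRNA-depleted paired-end libraries. Per the labels and file headers, the authors trimmed reads with Trimmomatic 0.39, aligned them with STAR 2.7.10a to mm39 (GRCm39) plus the transgene, and counted them over exons with featureCounts 2.0.3, without strand and with each mate counted, so the deposited values are raw read counts per gene. By that program's defaults, reads that map to several places or overlap several genes are not counted. Here symbols came from GENCODE M39, and 98.7% of 56750 features matched. Counts were summed over a tumor's duplicates, filtered with filterByExpr, scaled by TMM and tested with edgeR 4.0.16 (quasi-likelihood, Benjamini-Hochberg over 24743 genes, threshold 0.05; R 4.3.3). Alternatives used DESeq2 1.42.0, limma 3.58.1, other scalings, filters and replicate units, a background taken from 1547 receptor genes, each tumor left out, and, added after seeing the data, removal of a trend on exon length. The main edgeR fit on tumor sums was run on simulated counts with known changes. The DESeq2, limma-voom and length-trend fits were not. With 3 and 2 tumors an exact permutation test of a single value cannot reach 0.05, so none is given. The dFLEx tumor numbers are those of separate mice in the study's data, and for the KP tumors separate animals are not stated in the sources used here. All 32 genes are named, and of the other lists those with an unadjusted p under 0.05, at most 6 a list, apart from items not reported here. The genes and lists were chosen with earlier results of these data known.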

Additional observations from a re-analysis of the deposited data

How the results depend on the processing

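The median log2 fold change of the 31 genes kept its sign in every alternative run, from 0.61 to 1.35 with each tumor left out, and 0 of the 31 genes were called except as follows. DESeq2 on tumor sums called 1 of the 31 (1528 of all genes), limma-voom with tumors as random effects 3 (543) and the libraries as independent samples 8 (3344). In a paired form of that fit, with the duplicate number as a replicate block, 4 of the 31 and 2476 of all genes were called, the median was 0.70 and Trp53 was at -0.60; duplicate numbers tie no tumors of the groups together. All genes called were 880 without a filter on low counts, 80 in genes averaging 1 CPM or more, 11 under robust dispersion estimates, 213 with the length trend removed, and 0 to 414 with each tumor left out, where the Trp53 value ran from -0.85 to 0.27. Library totals moved the median of all genes from -0.18 to -0.47, upper-quartile scaling to -0.34, and removal of the length trend to -0.33. Cdkn1a was reversed with DESeq2 size factors, DESeq2 on tumor sums and the first library of each tumor (-0.08 each), library totals (-0.29), upper quartile (-0.28), the 1 CPM filter (-0.20), limma-voom (-0.02), background subtraction (-0.07) and no length trend (-0.28). Sesn1 was reversed in the same alternatives, at -0.03, -0.03, -0.06, -0.24, -0.07, -0.07, -0.06, -0.01 and -0.10, and with libraries as independent samples without (-0.10) and with the block (-0.12). Fas was reversed with library totals (-0.00), upper quartile (-0.01) and no length trend (-0.04), and Rrm2b with no length trend (0.02). With each tumor left out, the ranges that crossed 0 were -0.08 to 0.35 for Cdkn1a, -1.01 to 1.59 for Rrm2b, -0.63 to 1.49 for Zmat3, -0.40 to 1.18 for Apaf1, -0.20 to 1.28 for Xpc, -0.10 to 1.46 for Polk, -0.32 to 0.68 for Sesn1, -0.09 to 1.25 for Sesn2, -0.05 to 1.25 for Fas and -0.59 to 0.27 for Bbc3. The cause was not tested for any reversal. Leaving out a KP tumor leaves the other alone, and its spread is then assumed to equal that of the dFLEx tumors. Trp73 was fitted only where no filter on low counts was used, and its depth is too low to show a difference.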
